A study of Mus musculus with 96 samples.

Results

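Lhx2, Sox9, Lgr5, Lgr6, Cd34, Nfatc1, Tcf7l1, Tcf7l2 and Lrig1 are 9 genes that mark or control the stem and progenitor cells of the mouse hair follicle. They were chosen by name, all 9 were found among the 22384 genes given for every genotype, and all 9 passed the filter of a mean of at least 1 RPKM (reads scaled to transcript length and library size) over all libraries, which left 12144 genes for testing. Poly(A) RNA was sequenced from dorsal epidermis, separated by dispase, of C57BL/6 males at 8 weeks under a cycle with 12 h of light. Each genotype had 4 mice at each of 6 zeitgeber times (ZT, hours after lights on: 0, 4, 8, 12, 16 and 20), which gives 96 libraries. RERE mice (Arntl stopFL/stopFL, with K14Cre tg/wt and with Syt10-Cre tg/wt) are labelled as having the clock gene Arntl restored in brain and epidermis. EpiRE mice (Arntl stopFL/stopFL, with K14Cre tg/wt but Syt10-Cre wt/wt) are labelled as restored in epidermis, and BRE mice (Arntl stopFL/stopFL, with Syt10-Cre tg/wt but K14Cre wt/wt) as restored in brain. WT mice (Arntl wt/wt, with Syt10-Cre tg/wt and with K14Cre wt/tg) also carry both Cre transgenes, so no group is free of Cre. K14 drives Cre in keratinocytes, those of the follicle included. The design asks which daily rhythms of the epidermis depend on a clock in the skin, in the brain or in both.

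The hair follicle renews itself in cycles from stem cells kept in its bulge. LHX2, SOX9, NFATC1, TCF7L1 (TCF3) and TCF7L2 (TCF4) are transcription factors of these cells: SOX9 and LHX2 maintain the bulge, NFATC1 keeps bulge cells quiescent, and the TCF proteins bind the DNA targets of Wnt signalling. LGR5 and LGR6 are receptors for R-spondins, which raise Wnt signalling; Lgr5 marks the lower bulge and hair germ, while Lgr6 marks the isthmus above the bulge and also cells of the epidermis between follicles. LRIG1, a brake on the EGF receptor, marks stem cells of the upper follicle, and CD34 is a surface protein used to sort mouse bulge cells that is also found on blood vessels and other cells of the dermis.

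Only Lgr6 in BRE and Lhx2 in WT were called rhythmic among these genes (limma, F test of a 24 h harmonic, Benjamini-Hochberg adjusted p below 0.05 over all 12144 genes). Each was 1 of 9 members, or 11.1%, against 17.1% of all genes called in BRE and 34.4% in WT. Lgr6 in BRE epidermis had a fitted peak 1.99-fold above its trough, near the end of the dark phase. Its rhythm differed from that of each other genotype by the direct test. The share of all genes called in those tests was 20.2% against WT, 4.79% against RERE and 13.9% against EpiRE. Without all mice of certain replicate numbers, the call in BRE and the differences from WT and RERE were lost, while the difference from EpiRE held. Lhx2 in WT epidermis had a fitted peak 2.86-fold above its trough, but that call was lost under several settings. Within time points, median Pearson r over all 36 member pairs was 0.46 in RERE, 0.50 in EpiRE, 0.43 in BRE and 0.47 in WT. Without Lgr6, every pair was positive from mouse to mouse in all 4 genotypes, with medians of 0.50, 0.58, 0.55 and 0.52 in that order. Setting Lgr6 apart was not planned beforehand, so these higher medians are a description and no test. A few of the pairs without Lgr6 were not positive under rescaling, with a replicate block or without the mice of any single number. Without the mice numbered 1 the number of pairs past the threshold fell to 0 or 1 a genotype. How often pairs of other genes correlate in this way was not measured.

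The promoters of both called genes are printed to show the sequence at the start sites that these rhythms concern. That of Lrig1, which the 24 h harmonic called in no genotype, is printed beside them. RefSeq windows on mouse build GRCm38.p6, 250 bases before to 50 after a start site, were held for 6 of the 9 genes, 8 windows in all (Lhx2 and Tcf7l2 have a second start). They were searched on both strands for the E-box CACGTG bound by CLOCK and BMAL1 (7.15% of all 32851 windows hold it), the E-box variant CACGTT (4.68%), AGGTCA, the core of the ROR and REV-ERB element (16.3%), CTTTGA, the core of the TCF and LEF site (16%), and the GC box GGGCGG (35.7%). Capitals mark every match; a lower-case stretch holds none of the 5 motifs, and a GC box on the opposite strand reads CCGCCC. The windows are chr1:135105227-135105526 on the minus strand for Lgr6, chr2:38339031-38339330 on the plus strand for the first start of Lhx2, and chr6:94700096-94700395 on the minus strand for Lrig1, each written 5′ to 3′ along its gene.
Lgr6: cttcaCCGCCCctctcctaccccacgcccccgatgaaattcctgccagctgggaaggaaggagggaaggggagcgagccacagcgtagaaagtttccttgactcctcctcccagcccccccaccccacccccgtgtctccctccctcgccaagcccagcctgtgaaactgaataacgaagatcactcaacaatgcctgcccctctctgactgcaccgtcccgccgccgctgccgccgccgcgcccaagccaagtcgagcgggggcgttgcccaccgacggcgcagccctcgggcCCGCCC
Lhx2: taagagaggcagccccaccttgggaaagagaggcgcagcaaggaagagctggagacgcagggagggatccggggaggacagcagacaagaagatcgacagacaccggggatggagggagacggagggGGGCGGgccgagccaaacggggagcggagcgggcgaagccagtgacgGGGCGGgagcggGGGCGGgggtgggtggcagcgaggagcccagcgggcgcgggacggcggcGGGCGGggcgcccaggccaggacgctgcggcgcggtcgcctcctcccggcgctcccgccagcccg
Lrig1: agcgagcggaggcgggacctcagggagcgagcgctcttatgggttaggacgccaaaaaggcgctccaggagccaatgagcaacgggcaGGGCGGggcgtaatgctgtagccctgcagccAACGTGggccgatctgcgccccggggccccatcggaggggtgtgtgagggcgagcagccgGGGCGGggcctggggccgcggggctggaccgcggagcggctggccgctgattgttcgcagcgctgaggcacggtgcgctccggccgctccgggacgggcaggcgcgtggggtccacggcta
These 3 windows are 67.7%, 74.7% and 73.0% G or C in the order printed. None of the 8 windows held the E-box CACGTG, the ROR and REV-ERB core or the TCF and LEF core. Lrig1 held the E-box variant, printed as AACGTG because it lies on the opposite strand, 131 bases before the start. GC boxes were found in the windows of Lgr6, Lhx2, Lrig1, Tcf7l1 and Tcf7l2. A match or its absence in 300 bases near a start says nothing about binding elsewhere.

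Library depth, estimated from the value that the deposited tables give to genes without reads, ran between 11.6 and 33.3 M reads with a median of 17 M. Cd34 rested on the fewest reads, between 3 and 650 in a library; the other members had at least 47 reads in every library, and Lrig1 up to 6369. Arntl itself had a median of 16.6 RPKM in RERE, 15.1 in EpiRE, 12.9 in BRE and 14.7 in WT. Reads over the gene do not show whether its product is functional, so this level does not check the genotype labels. The labelled tissue had its markers: the 11 genes of interfollicular basal keratinocytes summed to between 7120 and 12500 RPKM in every library. In contrast 10 endothelial markers together gave 0.51 to 1.88 RPKM, and 10 fibroblast markers 2.59 to 32.0 RPKM. Sums as low as the endothelial ones are in part the prior of 2 reads that the values appear to hold for each gene. In bulk RNA of this kind, fewer cells of a type and less RNA per cell cannot be told apart.

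Averaged over the 4 genotypes, Lrig1 (30.1 RPKM) and Lgr6 (25.1 RPKM) had the highest levels and Cd34 (1.22 RPKM) the lowest. Each table was normalized in a run of its own, so levels are set side by side here and were not tested between genotypes. Of the 27 neighbouring pairs in the order of genotypes by mean log2 RPKM, 3 for each gene, 2 were farther apart than the larger of their SDs. The first was Lhx2, a bulge transcription factor, with 4.13 ± 1.72 RPKM in RERE, 4.32 ± 2.79 in EpiRE, 3.66 ± 1.31 in BRE and 9.87 ± 6.75 in WT (mean ± SD, n = 24 mice each, all times). WT libraries ran from 1.46 to 32.6 RPKM and thus overlapped those of the other genotypes, whose highest was 12.3. The second was Lgr6, with 24.9 ± 4.91 RPKM in RERE, 23.4 ± 4.55 in EpiRE, 19.4 ± 6.39 in BRE and 32.7 ± 6.53 in WT. BRE libraries of Lgr6 spread from 10.1 to 32.7 RPKM and WT libraries from 22.3 to 48.5 RPKM, again with overlap. For the other 25 pairs, the gap in log2 RPKM was smaller than the spread.

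**Figure D1:**
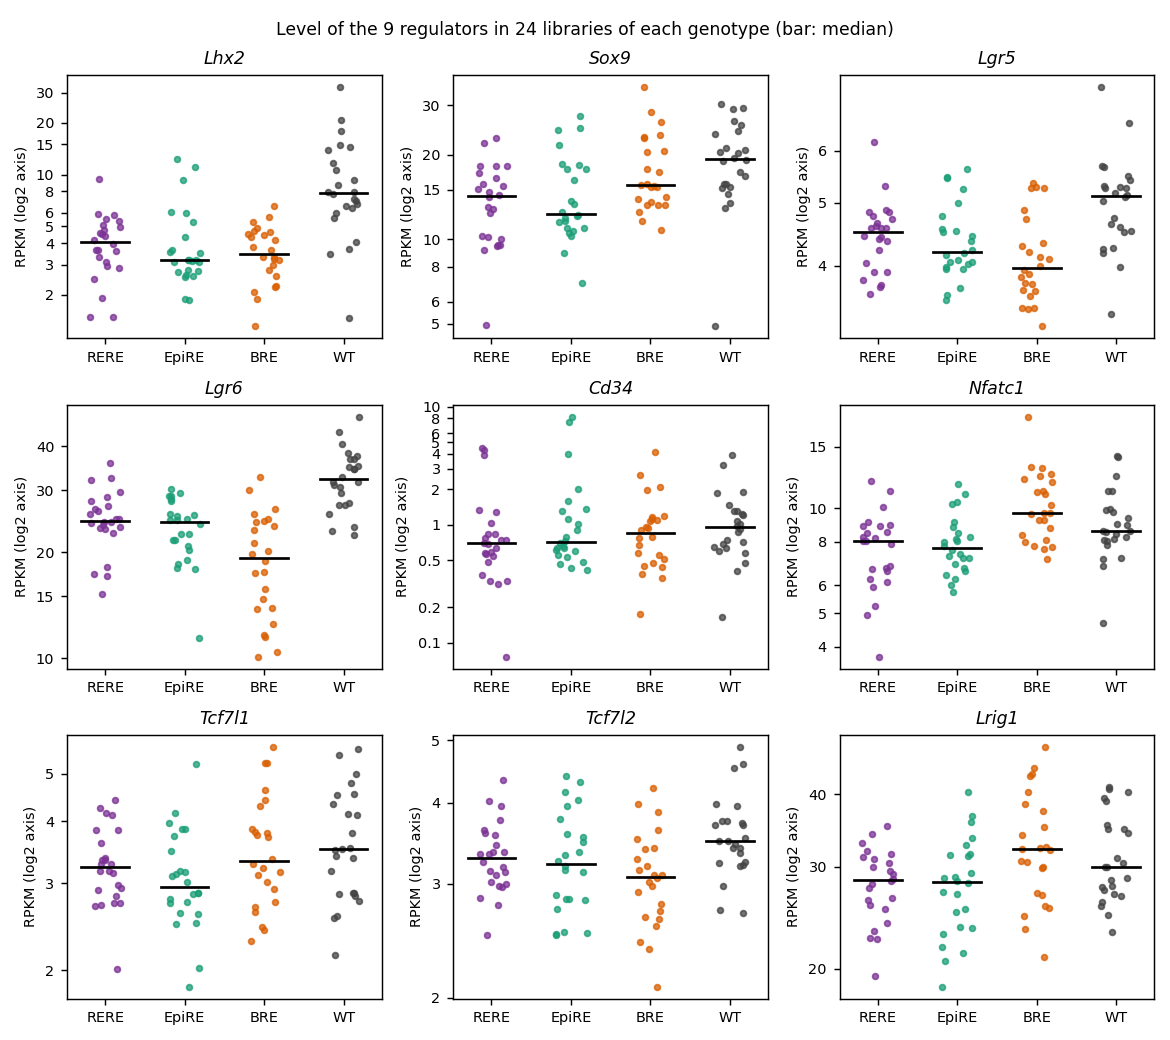
RPKM of each of the 9 genes (log2 axis) in the 24 libraries of RERE, EpiRE, BRE and WT; each point is 1 mouse and the bar is the median. The WT medians of Lhx2 (7.78 RPKM) and Lgr6 (32.2 RPKM) lie above those of the other genotypes, and Cd34 has a few mice far above the rest.

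Lgr6 is the R-spondin receptor gene whose daily course in BRE stood out. BRE mice had 13.9, 19.7, 23.8 and 26.5 RPKM at ZT0, and 25.6, 20.1, 23.1 and 24.3 RPKM at ZT4. At ZT8 they had 11.6, 11.5, 14.7 and 15.7 RPKM, and at ZT12 17.5, 12.5, 13.8 and 10.4 RPKM. Later in the dark phase they had 18.9, 10.1, 21.3 and 17.6 RPKM at ZT16 and 32.7, 24.8, 24.5 and 30.1 RPKM at ZT20. Every BRE mouse at ZT20 or ZT4 was above every BRE mouse at ZT8 or ZT12, while the mice of ZT0 and ZT16 overlapped with those of ZT4 and of ZT8. The fitted peak-to-trough difference was 0.99 ± 0.20 log2 (SE, n = 24) with a peak at ZT22.7 and an adjusted p of 0.00887 (limma). Of the 9 members tested in BRE, Lgr6 was the only one called, 11.1% of them against 17.1% of all genes tested, so the share of rhythmic members was not above that of all genes.

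In the other genotypes Lgr6 varied less over the day. Its mean by time lay between 20.3 and 29.5 RPKM in RERE, between 18.2 and 26.7 RPKM in EpiRE and between 26.5 and 40.2 RPKM in WT. The fitted sizes were 0.36 ± 0.16 log2 with a peak at ZT6.22 in RERE (adjusted p = 0.236), 0.48 ± 0.16 with a peak at ZT12.1 in EpiRE (0.161) and 0.08 ± 0.17 in WT (0.944; limma, n = 24 each). Differences of rhythm were tested directly on the 48 libraries of 2 genotypes. The test called Lgr6 in BRE against WT (adjusted p = 0.0271), in RERE against BRE (0.00873) and in EpiRE against BRE (0.000664), with 20.2%, 4.79% and 13.9% of all genes called in these comparisons (limma). No other member was called in any of the 6 comparisons of rhythms. In RERE against WT, EpiRE against WT and RERE against EpiRE, where 0.453%, 8.51% and 4.04% of all genes were called, 0 of the 9 members passed, with 1, 0 and 1 at an unadjusted p below 0.05.

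**Figure D2:**
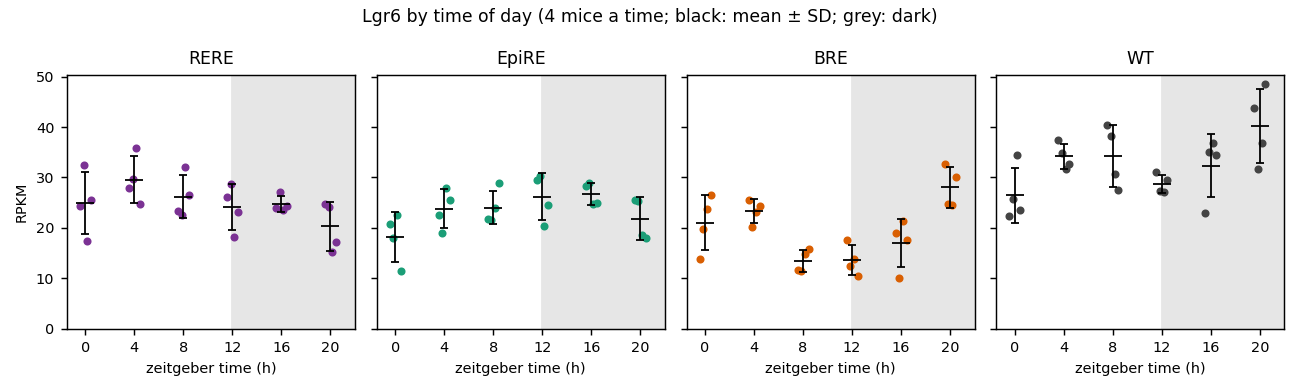
Lgr6 in RPKM against zeitgeber time in hours, a panel per genotype; points are single mice, black marks are the mean ± SD of 4 mice, and grey is the dark phase. BRE mice averaged 13.4 RPKM (ZT8) and 28.0 RPKM (ZT20), WT mice 34.2 RPKM (ZT8) and 40.2 RPKM (ZT20).

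Leaving out any single library kept Lgr6 called in BRE, with adjusted p between 0.00103 and 0.0182. Leaving out all mice numbered 2, 3 or 4 ended the call (0.0671, 0.0717 and 0.0834), and so did the same step for BRE against WT (0.181, 0.0963 and 0.126); without number 3 or 4 the call of RERE against BRE ended too (0.162 and 0.217), whereas EpiRE against BRE was called in each of these fits. In the authors' deposited table of JTK_CYCLE results, a rank test for rhythms, Lgr6 in BRE had q = 0.0451, the only q below 0.05 among the 36 pairings of a member with a genotype; the q of their BIOCYCLE run, a second search for rhythms, was 0.165.

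Markers of basal and differentiated keratinocytes were measured beside Lgr6. In BRE, 5 of the 11 basal markers were called (17.1% of all genes were), with peaks between ZT15.8 and ZT20.9, before that of Lgr6 at ZT22.7: Itga6, a laminin-binding integrin (0.44 ± 0.10 log2, peak ZT19.7, adjusted p = 0.0135), Itga3, Lamb3, Dst and Itgb1. In the same mice 4 of 11 markers of differentiated keratinocytes were called, with peaks between ZT10.6 and ZT14.1, among them the cornified envelope gene Ivl (1.12 ± 0.23 log2, peak ZT14.1, adjusted p = 0.00849; limma). The summed level of the 11 basal markers in BRE ranged from 7180 to 12300 RPKM, with time means of 11000 RPKM at ZT0, 10900 at ZT4, 9100 at ZT8, 9150 at ZT12, 9390 at ZT16 and 9960 at ZT20, the time at which Lgr6 was highest. Most of this sum is Krt5 and Krt14 (means of 6280 and 2960 RPKM over all libraries), neither of which is among the 5 called. The sum thus mainly gives the course of these keratins. After removal of time-point means, Lgr6 and the mean log2 level of the basal markers correlated with r = 0.50 in RERE, 0.59 in EpiRE, 0.58 in BRE and 0.70 in WT, with Spearman rho of 0.48, 0.50, 0.56 and 0.61 (24 mice each). By permutation within time points, adjusted over 324 such relations of members with marker lists, the Pearson p was 0.214 in RERE, 0.0439 in EpiRE, 0.0799 in BRE and 0.0651 in WT, so EpiRE alone passed; the Spearman p was 0.12 there. Without the 2 libraries farthest from the Lgr6 median, r was 0.44, 0.43, 0.47 and 0.51. The part of basal keratinocytes in the Lgr6 rhythm was not tested.

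Lgr5, the other R-spondin receptor and a marker of the lower bulge, was steadier. It ran from 3.62 to 6.19 RPKM in RERE, 3.54 to 5.62 in EpiRE, 3.23 to 5.36 in BRE and 3.37 to 7.53 in WT. The fitted rhythms were 0.08 ± 0.10 log2 in RERE, 0.30 ± 0.09 in EpiRE, 0.09 ± 0.13 in BRE and 0.31 ± 0.13 in WT, with adjusted p of 0.873, 0.128, 0.877 and 0.143 (limma). In WT, leaving out the mouse numbered 4 at ZT16 brought Lgr5 to 0.0494.

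Lhx2 was the called gene of WT. In WT mice it had 7.05, 18, 6.60 and 14 RPKM at ZT0, and 3.69, 6.73, 9.29 and 4.06 RPKM at ZT4. At ZT8 the values were 1.46, 10.6, 6.42 and 5.63 RPKM, and at ZT12 7.20, 3.44, 7.88 and 11.7 RPKM. In the dark phase they were 14.8, 8.72, 14.5 and 7.69 RPKM at ZT16 and 32.6, 7.96, 5.98 and 20.9 RPKM at ZT20. The ranges of all 6 time points overlapped, and the mice of ZT20 alone spanned 5.98 to 32.6 RPKM. The fitted size was 1.52 ± 0.45 log2 (SE, n = 24) with a peak at ZT19.4 and an adjusted p of 0.0349 (limma); 1 of 9 members, 11.1%, was called in WT, against 34.4% of all genes.

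The call of Lhx2 in WT ended when any of 7 single libraries was left out, namely the mice numbered 1 and 4 at ZT4 (adjusted p = 0.0537 and 0.0526), 1 at ZT8 (0.0804), 1 and 3 at ZT16 (0.0509 and 0.0505), and 1 and 4 at ZT20 (0.082 and 0.0655; limma). It also ended with no filter on low values (0.0639), with a filter at 0.1 RPKM (0.0529), and with time as a factor of 5 degrees of freedom in place of the harmonic (0.212). Without all WT mice numbered 1 the adjusted p was 0.363, and without those numbered 4 it was 0.134. The authors' deposited table gave q = 0.168 by JTK_CYCLE and 0.406 by BIOCYCLE for Lhx2 in WT.

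**Figure D3:**
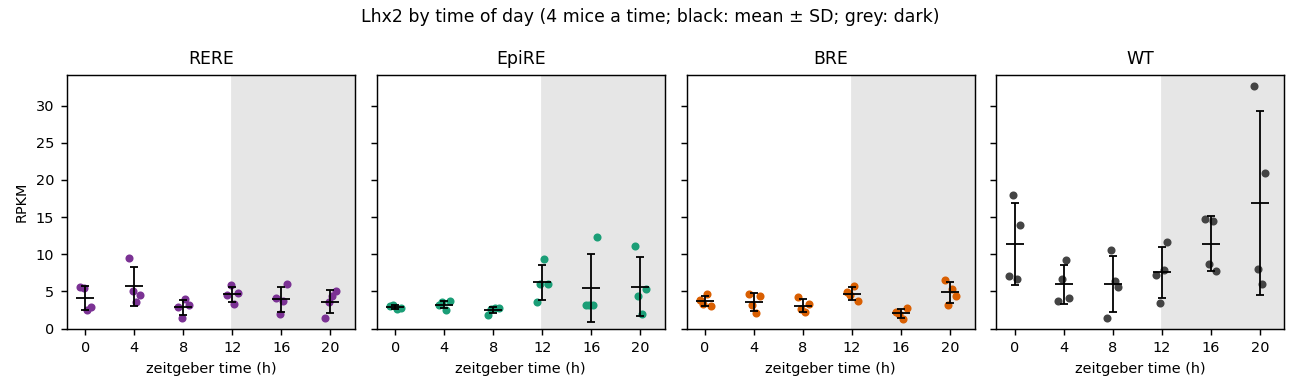
Lhx2 in RPKM against zeitgeber time in hours, a panel per genotype; points are single mice, black marks are the mean ± SD of 4 mice, and grey is the dark phase. WT mice lie higher and wider than the others, with 5.94 ± 2.61 RPKM at ZT4 and 16.9 ± 12.4 RPKM at ZT20.

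In the other genotypes no rhythm of Lhx2 was called. Its size was 0.19 ± 0.37 log2 in RERE (adjusted p = 0.941), 0.98 ± 0.37 with a peak at ZT15.8 in EpiRE (0.244) and 0.26 ± 0.33 in BRE (0.818; limma). In EpiRE the mice stood between 1.87 and 3.64 RPKM at ZT0, ZT4 and ZT8 and between 1.89 and 12.3 RPKM at ZT12, ZT16 and ZT20. BRE mice had 1.31 to 2.77 RPKM at ZT16 and 3.18 to 6.57 RPKM at ZT20 without overlap, and with time as a factor Lhx2 was called in BRE (adjusted p = 0.0308). The rhythm differences of Lhx2 did not pass the test for RERE against WT (adjusted p = 0.292), EpiRE against WT (0.326) or BRE against WT (0.111), so the call in WT alone does not show that WT differed from the others.

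Markers of other skin cells moved with Lhx2 among WT mice. The WT mouse with most Lhx2, numbered 1 at ZT20, also had the highest summed level in WT of the 10 fibroblast markers (32.0 RPKM), of the 15 sebaceous gland markers (504 RPKM) and of the 10 endothelial markers (1.88 RPKM). The WT mouse with least Lhx2, numbered 1 at ZT8, had 5.13, 188 and 0.737 RPKM for these 3 lists, which ranked 19, 23 and 19 from the highest of 24. For 6 melanocyte markers the mouse with most Lhx2 ranked 3 (28.1 RPKM) and that with least ranked 24 (6.11 RPKM). After removal of time-point means, Lhx2 in WT correlated with the mean log2 level of the tested fibroblast markers Col1a1 and Fbln1 (r = 0.87, rho = 0.90, adjusted permutation p = 0.0013), of 4 hair shaft and matrix genes (r = 0.79, rho = 0.84, 0.0013), of 3 melanocyte genes (r = 0.78, rho = 0.77, 0.00281) and of 9 sebaceous genes (r = 0.77, rho = 0.75, 0.0115). Without the 2 libraries farthest from the Lhx2 median these r were 0.87, 0.83, 0.72 and 0.72. With the basal keratinocyte markers the relation was negative (r = -0.59, rho = -0.61, adjusted permutation p = 0.0223). Of the tested fibroblast markers, Fbln1, an extracellular matrix gene, was called in WT (1.41 ± 0.40 log2, peak ZT21.2, adjusted p = 0.0262; limma) and Col1a1 was not (0.561); the hair shaft regulator Hoxc13 was called as well (1.45 ± 0.41, peak ZT20.3, 0.0257). Most of the sebaceous sum is Scd1 and Acsbg1 (means of 116 and 115 RPKM over all libraries). In RERE and EpiRE no member passed with the fibroblast, hair shaft, melanocyte or sebaceous list. In BRE 3 members passed with the fibroblast list, where r over the members ran from -0.71 to 0.25. None passed there with the hair shaft, melanocyte or sebaceous list. Whether WT differs in this from the others, and the part of these markers in the Lhx2 values, was not tested.

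Sox9, a master regulator of the bulge, ran from 4.95 to 23.0 RPKM in RERE, 7.02 to 27.4 in EpiRE, 10.8 to 35.0 in BRE and 4.90 to 30.3 in WT. Its fitted sizes were 0.28 ± 0.29, 0.46 ± 0.28, 0.45 ± 0.24 and 0.60 ± 0.29 log2 in RERE, EpiRE, BRE and WT, and no adjusted p was under 0.25 (limma). The highest Sox9 value of the study, 35.0 RPKM, belonged to the BRE mouse numbered 1 at ZT8, whose 3 companions had 10.8 to 13.9 RPKM. Without that mouse Sox9 (adjusted p = 0.0393) and Tcf7l1 (0.0494) would be called in BRE together with Lgr6, 3 members in place of 1.

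Tcf7l1, a mostly repressive TCF of bulge cells, was highest on average at ZT20 in all 4 genotypes. WT mice had 3.18 to 3.52 RPKM at ZT4, 2.15 to 3.53 RPKM at ZT8 and 4.53 to 5.61 RPKM at ZT20, so that all mice of ZT20 were above all mice of ZT4 and ZT8. The fitted peaks fell at ZT21.0 in RERE, ZT19.7 in EpiRE, ZT20.2 in BRE and ZT18.8 in WT, with sizes of 0.22 ± 0.15, 0.52 ± 0.16, 0.45 ± 0.20 and 0.57 ± 0.18 log2. None passed the test, with adjusted p of 0.549, 0.138, 0.213 and 0.0525 (limma). In WT this p ran from 0.0135 to 0.111 without a single library and from 0.046 to 0.277 without a replicate number. The authors' deposited q for WT were 0.15 by JTK_CYCLE and 0.434 by BIOCYCLE. WT was close to the threshold: it was called on the log2(RPKM + 1) scale (0.0485) and with time as a factor (0.0231), which also called EpiRE (0.0466). It was called as well when any of 7 single WT mice was left out, those numbered 1, 3 and 4 at ZT0 (0.0466, 0.0381 and 0.0451), 3 at ZT8 (0.0485), 4 at ZT12 (0.0468), and 3 and 4 at ZT16 (0.0491 and 0.0135).

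Tcf7l2, the related TCF that can also activate Wnt targets, kept to between 2.08 and 4.88 RPKM in all libraries, and its sizes were 0.15 ± 0.10 log2 in RERE, 0.37 ± 0.13 in EpiRE, 0.28 ± 0.13 in BRE and 0.14 ± 0.12 in WT. Nfatc1, the quiescence factor, stayed between 3.75 and 18.3 RPKM, with sizes of 0.14 ± 0.22, 0.11 ± 0.16, 0.41 ± 0.17 and 0.31 ± 0.19 log2 in the same order. The lowest adjusted p of either gene was 0.19, for Nfatc1 in BRE (limma). In EpiRE, where 2.87% of all genes were called, 0 of 9 members passed, although 5 had an unadjusted p below 0.05: Lhx2, Lgr5, Lgr6, Tcf7l1 and Tcf7l2 (20.5% of all genes had one below 0.05). In RERE, where 16.4% of all genes were called, 0 of 9 passed and 0 had an unadjusted p below 0.05. The median size over the 9 members was 0.22 log2 in RERE, 0.46 in EpiRE, 0.41 in BRE and 0.31 in WT. Over all genes tested it was 0.18, 0.15, 0.20 and 0.23 in the same order. A fitted size is never negative and grows with noise, so these medians do not show larger rhythms in the members.

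**Figure D4:**
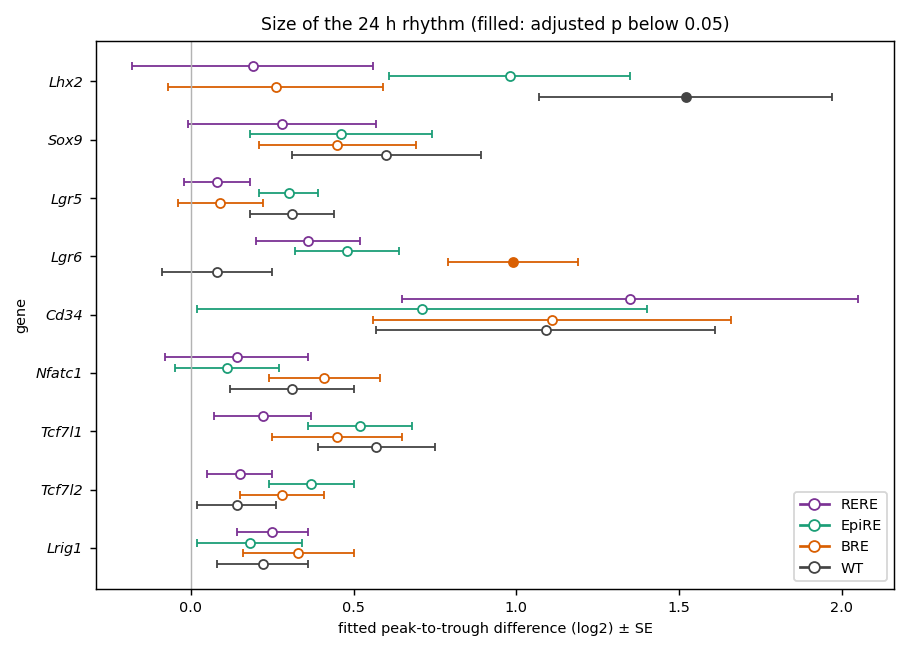
Fitted 24 h peak-to-trough difference (log2, bars ± SE over 24 mice) of each gene in RERE, EpiRE, BRE and WT; filled points had an adjusted p below 0.05. Lgr6 in BRE (0.99) and Lhx2 in WT (1.52) are the filled points, and Cd34 has the widest errors.

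Lrig1, the EGF receptor antagonist, had between 18.6 and 48.3 RPKM over all libraries. Its harmonic sizes of 0.25 ± 0.11, 0.18 ± 0.16, 0.33 ± 0.17 and 0.22 ± 0.14 log2 in RERE, EpiRE, BRE and WT were not called (adjusted p of 0.269, 0.773, 0.321 and 0.419; limma). Its WT course did not follow a single daily wave. WT mice had 34.3 to 40.9 RPKM at ZT4, 27.8 to 30.4 at ZT8, 26.7 to 41.1 at ZT12, 23.1 to 26.9 at ZT16 and 28.5 to 39.4 at ZT20, and all mice of ZT4 were above all mice of ZT8 and ZT16. With time as a factor Lrig1 was called in WT (adjusted p = 0.0058).

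Cd34, the bulge surface marker, differed most between mice. Its lowest and highest values were 0.076 and 4.51 RPKM in RERE, 0.413 and 8.26 in EpiRE, 0.173 and 4.15 in BRE, and 0.164 and 3.94 in WT, against medians of 0.694, 0.717, 0.845 and 0.953 RPKM. In RERE the mice numbered 1 at ZT0, 1 at ZT4 and 4 at ZT16 had 4.51, 3.89 and 4.28 RPKM. In EpiRE the 4 mice of ZT12 had 0.90, 7.48, 3.97 and 2.01 RPKM and those of ZT20 had 8.26, 0.467, 0.637 and 1.6 RPKM, so high values were shared by several mice at ZT12. The fitted sizes of 1.35 ± 0.70 log2 in RERE, 0.71 ± 0.69 in EpiRE, 1.11 ± 0.55 in BRE and 1.09 ± 0.52 in WT had adjusted p of 0.353, 0.799, 0.299 and 0.231 (limma). Endothelial cells could carry Cd34 reads. Their markers summed to 0.73 RPKM in the EpiRE mouse with 8.26 RPKM of Cd34 and to 0.67 RPKM in that with 7.48. In the RERE mice with 4.51, 3.89 and 4.28 RPKM of Cd34 they summed to 0.621, 0.655 and 0.897 RPKM. None of the 10 markers reached a mean of 1 RPKM. In the BRE mouse with the most Cd34 (4.15 RPKM, numbered 3 at ZT0) they summed to 1.87 RPKM, the highest of BRE. These sums include the prior of 2 reads that the values appear to hold for each gene, so a marker without reads still adds to them. The part of endothelial markers in the Cd34 values was not tested.

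Within time points many pairs of members varied together. How often pairs of other genes do so was not measured, so the counts below are not shown to be particular to the members. Over the 24 mice of a genotype, with time-point means removed, 15 of the 36 pairs of members passed in RERE, 17 in EpiRE, 13 in BRE and 15 in WT (Pearson, permutation within time points, 100000 resamples, two-sided, adjusted over 144 relations), and 13, 16, 9 and 11 passed by Spearman's rho. All 28 pairs without Lgr6 had a positive r in each genotype, though under rescaling 26 of them were positive in RERE (lowest r -0.06), and with a replicate block 27 in RERE (lowest -0.10) and 26 in BRE (lowest -0.18). The 8 pairs with Lgr6 had r between -0.24 and 0.53 in RERE, -0.04 and 0.33 in EpiRE, -0.11 and 0.21 in BRE and -0.32 and 0.48 in WT, and 2, 0, 0 and 1 of them passed. Over all 36 pairs, 34 were positive in RERE, 34 in EpiRE, 35 in BRE and 31 in WT. Setting Lgr6 apart was not planned beforehand. Whether Lgr6 differs in its correlations from the other members was not tested.

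Sox9 with Nfatc1, Sox9 with Lrig1, Sox9 with Lgr5, and Tcf7l2 with Lrig1 passed in all 4 genotypes by Pearson's r. By Spearman's rho this held for Tcf7l2 with Lrig1 alone: Sox9 with Nfatc1 (adjusted permutation p = 0.0859) and Sox9 with Lrig1 (0.148) did not pass in WT, and Sox9 with Lgr5 passed neither in BRE (0.178) nor in WT (0.0865). Sox9 and Nfatc1 had r = 0.80 in RERE, 0.76 in EpiRE, 0.78 in BRE and 0.71 in WT, with rho of 0.80, 0.77, 0.81 and 0.52 and adjusted permutation p of 0.00192, 0.00988, 0.00208 and 0.0137 for r. Without the 2 libraries farthest from the Sox9 median, r was 0.72, 0.72, 0.73 and 0.52. Sox9 and Lrig1 had r = 0.80, 0.73, 0.82 and 0.52 and rho of 0.75, 0.72, 0.82 and 0.37 in the same order, with adjusted permutation p of 0.00208, 0.00624, 0.00144 and 0.0149 for r. Lhx2 and Lgr5, a transcription factor and a receptor of the lower follicle, had r = 0.64 in RERE, 0.74 in EpiRE, 0.43 in BRE and 0.89 in WT, with rho of 0.60, 0.70, 0.49 and 0.87 and adjusted permutation p of 0.0103, 0.0121, 0.0833 and 0.00144. Lgr6 passed with Sox9 in RERE (r = 0.46) and with Lrig1 in RERE (r = 0.53) and WT (r = 0.48), but by rho only the pair in WT passed, with adjusted permutation p of 0.0984 and 0.0502 for the pairs in RERE. No pair that passed had an r below 0.3 without the 2 farthest libraries.

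Without the mice numbered 1 the counts fell to 0 pairs in RERE, EpiRE and BRE and 1 in WT, Lhx2 with Lgr5. The median r of the 28 pairs without Lgr6 was then 0.47 in RERE, 0.38 in EpiRE, 0.40 in BRE and 0.57 in WT, and 25, 26, 23 and 27 of them were positive. Leaving out the mice of another number left 3 to 12 pairs in a genotype. Of the 28 pairs without Lgr6, 27 were then positive in RERE (lowest r -0.22) and 27 in WT (-0.07) without number 2. Without number 3, 26 were positive in BRE (-0.14), and without number 4, 27 in WT (-0.16).

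**Figure D5:**
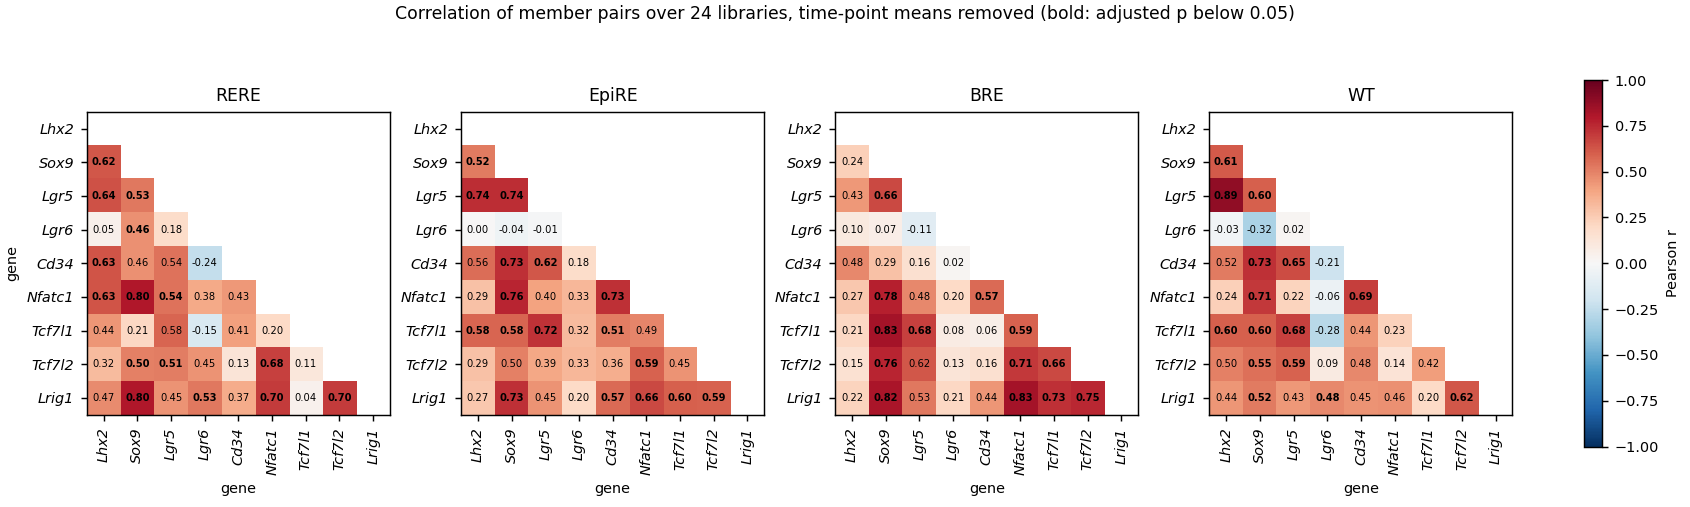
Pearson r of each pair of the 9 genes over 24 mice with time-point means removed (colour from -1 to 1), a panel per genotype; bold values had an adjusted permutation p below 0.05. The row and column of Lgr6 are pale, with r between -0.32 and 0.53, while all other pairs are positive (under rescaling 26 of 28 in RERE, with a replicate block 27 of 28 in RERE and 26 of 28 in BRE). Leaving out the mice of any single number also left some of the 28 not positive in a genotype or more.

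Over all 96 libraries, centred on the mean of their genotype and time, the genes most like Lhx2 were Tbx1, a transcription factor of bulge cells (r = 0.92), Shisa2 (0.86) and Farp1 (0.84). Those most like Sox9 were the forkhead factor Foxc1 (0.91), Gata6, a factor of the upper follicle (0.90), and the Wnt receptor Fzd7 (0.90). For Lgr5 they were the adhesion molecule Alcam (0.76), Fgfr1 (0.73) and Mertk (0.72), and for Lgr6 they included Man1c1 (0.74) and Antxr1 (0.70). Cd34 was closest to Thsd1 (0.82), Grem1, a BMP antagonist (0.74), and Timp2 (0.67), and Nfatc1 to the ephrin Efnb2 (0.84), the hedgehog co-receptor Boc (0.84) and Adgrl2 (0.83). Tcf7l1 was closest to Klhl40 (0.71), Tusc5 (0.70) and Nav1 (0.69), Tcf7l2 to the nuclear factor Nfib (0.82), Tnip1 (0.73) and Ick (0.72), and Lrig1 to Rapgef5 (0.84), the R-spondin receptor gene Lgr4 (0.83) and Adgrl2 (0.78). These r were ranked over all 12144 genes and are a description with no test.

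Genes of the pathways around the members were counted in lists chosen by name, to be read against 16.4% of all genes called in RERE, 2.87% in EpiRE, 17.1% in BRE and 34.4% in WT. Of 36 tested follicle stem and progenitor genes outside the members, 5 were called in RERE, 1 in EpiRE, 2 in BRE and 10 in WT (13.9%, 2.78%, 5.56% and 27.8%), with a median size of 0.34, 0.21, 0.29 and 0.47 log2. The chemokine gene Cxcl14 was called in RERE (1.72 ± 0.16 log2, peak ZT23.4, adjusted p = 6.23e-07), EpiRE (0.62 ± 0.13, ZT22.5, 0.0336) and WT (1.35 ± 0.14, ZT0.224, 2.79e-06). In BRE the 2 called were the hemidesmosome collagen Col17a1 (0.33 ± 0.08, ZT21.0, 0.0306) and Dlx3, a homeobox gene of hair and epidermal differentiation (0.81 ± 0.23, ZT12.6, 0.0464; limma).

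Of 39 tested Wnt and R-spondin genes, 9 were called in RERE, 1 in EpiRE, 12 in BRE and 22 in WT (23.1%, 2.56%, 30.8% and 56.4%). Their median size was 0.21, 0.20, 0.25 and 0.27 log2, beside 0.18, 0.15, 0.20 and 0.23 over all genes tested. Here too a fitted size grows with noise, so the medians do not show larger rhythms in the list. The co-receptor gene Lrp5 was called in RERE (0.27 ± 0.04 log2, peak ZT12.6, adjusted p = 0.000269) and WT (0.28 ± 0.04, ZT13.6, 9.37e-05). In BRE the ligand gene Wnt10b (0.94 ± 0.16, ZT1.54, 0.00228) and Znrf3, which removes Wnt receptors from the membrane and is itself held back by R-spondin (0.41 ± 0.08, ZT22.6, 0.00589), were called. Wls, needed for Wnt secretion, was the gene called in EpiRE (0.26 ± 0.05, ZT6.95, 0.0273; limma).

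Of 20 tested BMP and calcineurin-NFAT genes, 2 were called in RERE, 1 in EpiRE, 5 in BRE and 8 in WT (10%, 5%, 25% and 40%). Id1, a target of BMP signalling, was called in RERE (0.95 ± 0.25 log2, peak ZT13.1, adjusted p = 0.0286) and WT (1.03 ± 0.25, ZT10.1, 0.00982), and Rcan1, an inhibitor of calcineurin, in EpiRE (0.19 ± 0.04, ZT3.21, 0.0376; limma). Of 15 tested genes of EGF receptor signalling around LRIG1, 3 were called in RERE, 0 in EpiRE (1 at an unadjusted p below 0.05), 1 in BRE and 5 in WT (20%, 0%, 6.67% and 33.3%). Lrig2, a paralogue of Lrig1, was called in RERE (0.24 ± 0.06, ZT3.33, 0.0374), BRE (0.24 ± 0.07, ZT0.738, 0.0479) and WT (0.23 ± 0.06, ZT1.96, 0.00935). Spry1, a feedback inhibitor of receptor tyrosine kinases, was called in RERE (0.66 ± 0.12, ZT10.6, 0.00163) and WT (0.98 ± 0.11, ZT8.97, 5.65e-06). Of 18 tested clock genes, 16 were called in RERE, 7 in EpiRE, 2 in BRE and 16 in WT (limma).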

How the data were processed

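Per the submitters' processing notes, the authors used Trimmomatic 0.36, HISAT2 2.2.1, SAMtools 1.3.1, featureCounts 1.6.0 and edgeR (version not given) with genome mm10. The deposited tables, 1 per genotype, hold log2 values whose unit no label names; they behave as log2 RPKM with an added prior of 2 reads, and offsets between their lowest values (0.031 to 0.132 log2 against WT) show that each was normalized apart. Whole reads could be recovered for all 9 genes within 0.1 read. The p-values and q-values of the authors' JTK_CYCLE and BIOCYCLE runs are quoted as deposited.

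The test covered genes averaging 1 RPKM or more and was run on the log2 values with limma 3.58.1 in R 4.3.3 (F test of cosine and sine at 24 h, mean-variance trend, Benjamini-Hochberg), within each genotype and, for differences, as genotype by harmonic terms with a free mean per genotype. No pseudocount was added. Sizes are fitted peak-to-trough differences. On simulated data 1 log2 rhythms were recovered in 96% (RERE), 92% (EpiRE), 87% (BRE) and 90% (WT) of cases, and 0.5 log2 rhythms in 64%, 66%, 66% and 66%; for differences between genotypes recovery was 74% to 90% at 1 log2 and 45% to 55% at 0.5 log2. The simulated rhythms sat in genes drawn at random from those tested, so these rates are not recovery rates of the members. The SD within time points was 0.82 to 1.23 log2 for Cd34, 0.41 to 0.87 for Lhx2 and 0.15 to 0.21 for Lgr5. Correlations used Python 3.11.15 and numpy 2.4.6. Those with marker lists were added after the values were seen. Named genes are all members, at most 3 per list and genotype by smallest adjusted p plus those needed for a list result, and the 3 most similar genes per member, predicted genes passed over; 1 of these similar genes is not reported here. The members and lists were chosen with earlier results of these data known. Alternatives were other filters, rescaling by median of ratios, log2(RPKM + 1), time as a factor, no trend, a replicate block, and leaving out replicates or single libraries. Replicate numbers did not pair mice across times. Each library is a mouse by the labels.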

Additional observations from a re-analysis of the deposited data

Results flagged for a closer look

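The rhythm of Lgr6 differed between genotypes by the direct test in 3 of 6 comparisons (limma on 48 libraries each): BRE against WT (adjusted p = 0.0271, sizes 0.99 and 0.08 log2), RERE against BRE (0.00873, sizes 0.36 and 0.99 log2) and EpiRE against BRE (0.000664, sizes 0.48 and 0.99 log2). The calls of BRE against WT and RERE against BRE were lost without all mice of certain replicate numbers.

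Of 216 groups of 4 mice (9 genes at 6 times in 4 genotypes), 12 held a mouse far from the others by Dixon's ratio, where about 1 in 20 groups, 10.8 of them, would by chance. Mice that were high stood at 12.3 RPKM for Lhx2 in EpiRE at ZT16 (the others at 3.17 to 3.20), 4.51 for Cd34 in RERE at ZT0 (0.592 to 0.837), 1.32 for Cd34 in EpiRE at ZT4 (0.556 to 0.611) and 12.0 for Nfatc1 in RERE at ZT4 (8.07 to 8.53). Tcf7l1 was high in a mouse of BRE at ZT16 (5.66 RPKM, the others 3.11 to 3.22) and of WT at ZT0 (4.99, the others 2.76 to 2.87). Mice that were low stood at 12.9 RPKM for Sox9 in WT at ZT0 (the others at 20.3 to 20.8), 23.0 for Lgr6 in WT at ZT16 (34.4 to 36.8) and 0.332 for Cd34 in RERE at ZT12 (0.70 to 0.77). Tcf7l1 was low in a mouse of EpiRE at ZT8 (1.85 RPKM, the others 2.60 to 2.75) and of WT at ZT12 (2.87, the others 4.13 to 4.33), and Tcf7l2 in a mouse of EpiRE at ZT12 (3.19, the others 4.16 to 4.40).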

How the results depend on the processing

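Of 630 adjusted p-values of members under settings other than leaving mice out, 621 stayed on their side of 0.05, 4 lost the call and 5 gained it. Most of the 630 belonged to results that were not called in the main fit, and all 4 lost calls were of Lhx2 in WT. Members called in WT came to 0 with no filter, with the 0.1 RPKM filter and with the replicate block, and to 2 with log2(RPKM + 1) or time as a factor; time as a factor gave 1 in EpiRE and 2 in BRE. Genes called in RERE came to 1306 with time as a factor, those in EpiRE to 180 (no filter), 224 (0.1 RPKM) and 206 (replicate block), and those in BRE to 1350 (no filter). For RERE against WT the 55 genes called came to 2, 4, 10, 17, 12 and 4 (no filter, 0.1 RPKM, rescaling, time as a factor, no trend, replicate block). Time as a factor gave 629 for EpiRE against WT (654 under rescaling), 1584 for BRE against WT, 276 for RERE against EpiRE and 907 for EpiRE against BRE.

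Leaving out mice gave 1034 to 2263 genes in RERE, 6 to 550 in EpiRE (190 without the mouse numbered 1 at ZT4 and 550 without that numbered 3 at ZT16), 211 to 2787 in BRE and 2065 to 4544 in WT, with 0 to 3 members in BRE and in WT. Differences gave 0 to 2 for RERE against WT, 145 to 1376 for EpiRE against WT, 1012 to 1873 for BRE against WT (members 0 to 1), 74 to 256 for RERE against EpiRE, 188 to 714 for RERE against BRE (members 0 to 1) and 383 to 1313 for EpiRE against BRE. Pairs of members that passed numbered 0 to 10 in RERE, 0 to 12 in EpiRE, 0 to 9 in BRE and 1 to 5 in WT; leaving out a number takes away 6 of 24 mice.

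Same-numbered mice did not deviate together (mean r over the pairs of times 0.028 in RERE, -0.021 in EpiRE, -0.007 in BRE and -0.003 in WT) (same-number r between single pairs reached 0.381 in RERE), and no label says what a number shares. With the replicate block, Lhx2 in WT had an adjusted p of 0.0528, and 10 of 24 libraries in RERE, 4 in EpiRE, 5 in BRE and 7 in WT correlated best with their own number. The causes were not tested.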

Other observations

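The members were also set against 9 marker lists, within each genotype and with time-point means removed (324 relations, permutation within time points, adjusted over all of them; a comparison added after the values were seen). With the other follicle stem and progenitor genes, r reached 0.84 in RERE, 0.86 in EpiRE, 0.89 in BRE and 0.92 in WT, and 6, 6, 5 and 5 of the 9 members passed. With differentiated keratinocyte markers all members of BRE had a negative r, between -0.67 and -0.31, and 4 passed. With fibroblast markers 3 members passed in BRE, where r ran from -0.71 to 0.25, and 2 in WT, where it ran from 0.05 to 0.87. In WT 3 members passed with hair shaft and matrix genes, 2 with melanocyte genes and 1 with sebaceous gland genes. Whether these relations differ between genotypes was not tested. How often genes outside the members pass with these lists was not measured, so the counts are not shown to be particular to the members.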
